A study of Mus musculus with 6 samples.

Results

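The mitochondrial ribosomal protein genes were taken as every row of the count table whose symbol is Mrpl or Mrps followed by a number and at most 1 letter. The rule found 78 of the 50763 genes in the table, 49 with an Mrpl symbol (large subunit) and 29 with an Mrps symbol (small subunit). Names with a hyphen, which left out 6 pseudogene rows, were not used. Poly(A) RNA was sequenced from mouse embryonic fibroblasts, mesenchymal cells grown from E13.5 embryos on a C57BL/6 background (C57BL/6J per the sample labels). The WT group held 3 libraries from mice without an engineered allele. The K68R group held 3 libraries from mice carrying K68R, a CRISPR-made lysine to arginine change in SOD2, the enzyme that removes superoxide in the mitochondrial matrix. The labels do not give the zygosity, the number of embryos or the passage, and the culture before RNA extraction was brief in both groups. The series as a whole concerned heart disease in mice with this allele, and the comparison described here is K68R against WT in the fibroblasts. The K68R libraries had 48.9, 45.6 and 47.2 CPM of Sod2 (CPM being counts scaled to the normalized library size) and the WT libraries had 71.8, 68.9 and 69.2 CPM. Gene counts do not show the substitution, so they do not check the labels.

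The mitochondrial ribosome translates the messages that mitochondrial DNA encodes, all of which are core subunits of the respiratory chain and ATP synthase. Its RNA comes from the mitochondrial genome, whereas all of its proteins are encoded in the nucleus, made in the cytosol and imported. Some of these proteins have bacterial counterparts, and others are found only in mitochondrial ribosomes. Embryonic fibroblasts grow and divide in culture and carry such ribosomes in all their mitochondria.

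The 78 genes lay on 17 chromosomes, with the highest number, 11, on chromosome 11. RefSeq promoter windows of 300 bases (250 before and 50 after the start, build GRCm38.p6) matched 69 of the 78 genes, with 75 windows in all. Each window was searched on both strands for short cores. The core CCGGAAG, bound by ETS factors such as GABPA, a regulator of nuclear genes for mitochondria, was in 34.7% of the members' windows, 15.3% of the windows of tested genes and 8.86% of all windows. YY1's core ATGGCGG was in 17.3%, 6.98% and 4.05% of the same windows. The core GCGCATG of NRF1, another such regulator, was in 10.7%, 6.09% and 3.91%. At least 1 of these cores was in 49.3% of the members' windows, against 25.1% for tested genes and 15.0% for all. The SP1 box GGGCGG was in 52.0% of the members' windows, 59.0% for tested genes and 35.7% for all, so the members lay between them. The E-box CACGTG was in 9.33%, 9.38% and 7.15%, and the CRE core TGACGT in 13.3%, 10.6% and 7.51%. A match describes letters and is not a measured binding site. The overlaps of these motifs with each other were not removed. The 4 sequences below are the 200 bases just before the RefSeq start, printed 5′ to 3′ on the gene's strand with the ETS core or its reverse complement CTTCCGG in capitals. They show the core in members of both subunits whose decreases ran from the largest of the large subunit to one of the smaller, and were chosen after values were seen, among windows without annotated exon bases. Mrpl52 lies on the plus strand at chr14:54426709-54426908, Mrps22 on the minus strand at chr9:98601680-98601879, Mrpl58 on the plus strand at chr11:115403552-115403751, and Mrpl34 on the plus strand at chr8:71464726-71464925.
Mrpl52: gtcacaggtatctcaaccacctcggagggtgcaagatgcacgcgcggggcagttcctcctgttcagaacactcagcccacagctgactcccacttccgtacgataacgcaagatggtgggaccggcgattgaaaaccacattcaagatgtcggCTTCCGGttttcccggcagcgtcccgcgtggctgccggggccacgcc
Mrps22: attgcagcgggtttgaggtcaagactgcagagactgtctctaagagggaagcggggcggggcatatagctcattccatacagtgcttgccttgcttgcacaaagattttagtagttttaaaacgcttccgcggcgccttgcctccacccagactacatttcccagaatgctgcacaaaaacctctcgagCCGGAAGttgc
Mrpl58: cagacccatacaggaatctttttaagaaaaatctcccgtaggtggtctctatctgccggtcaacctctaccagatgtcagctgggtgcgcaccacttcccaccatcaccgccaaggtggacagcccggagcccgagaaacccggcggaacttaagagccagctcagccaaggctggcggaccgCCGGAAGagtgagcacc
Mrpl34: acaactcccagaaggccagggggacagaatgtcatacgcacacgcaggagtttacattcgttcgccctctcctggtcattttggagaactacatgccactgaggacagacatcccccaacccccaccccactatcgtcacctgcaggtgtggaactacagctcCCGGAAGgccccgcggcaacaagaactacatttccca
The log2 fold changes of these 4 genes (K68R over WT) were -1.13 for Mrpl52, -0.78 for Mrps22, -0.70 for Mrpl58 and -0.37 for Mrpl34. The core stood in front of genes with large and with small decreases. The median log2 fold change was -0.72 over the 26 members with an ETS core and -0.65 over the 45 with a window without it, where a gene with several windows could count in both.

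Every one of the 78 members was lower in K68R than in WT fibroblasts, by 1.59-fold at the median, although the size and, for a few genes, the direction depended on whether gene length and GC content were corrected for (given below). All 78 had enough counts to be tested, with 370 to 4608 counts per gene and library. In edgeR's quasi-likelihood test with Benjamini-Hochberg adjustment over 16730 genes, all 78 were called lower (adjusted p under 0.05), 0 were called higher and 0 were not called. None was higher at an unadjusted p under 0.05 or in DESeq2 either. The background was broad, since 81.4% of all tested genes were called, 40.5% lower and 40.8% higher. The largest adjusted p among the members was 0.000227. In each of the 78 genes all 3 K68R values lay below all 3 WT values, which held for 41.0% of all tested genes. A decrease of at least 1.5-fold was called for 53 members (20.0% of tested genes) and one of at least 2-fold for 6 members (7.57% of tested genes). Against a bound of 1.2-fold, 73 members stayed lower (31.0% of tested genes), and Mrpl10, Mrpl38, Mrpl43, Mrps26 and Mrps34 did not pass. Log2 fold changes ran from -1.30 to -0.19, with a median of -0.67 beside -0.01 over all tested genes. Upper quartile normalization moved the median of all tested genes to -0.12 and that of the members to -0.78. Such a change of scale shifts all genes by nearly the same amount. The members' median minus that of all tested genes therefore stayed at -0.66, which is not a separate check. In a bulk culture, fewer cells of a type and less RNA per cell cannot be told apart. The labels call the libraries biological replicates but do not tie them to separate embryos, so the p-values measure the spread between these libraries, which may be technical.

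**Figure D1:**
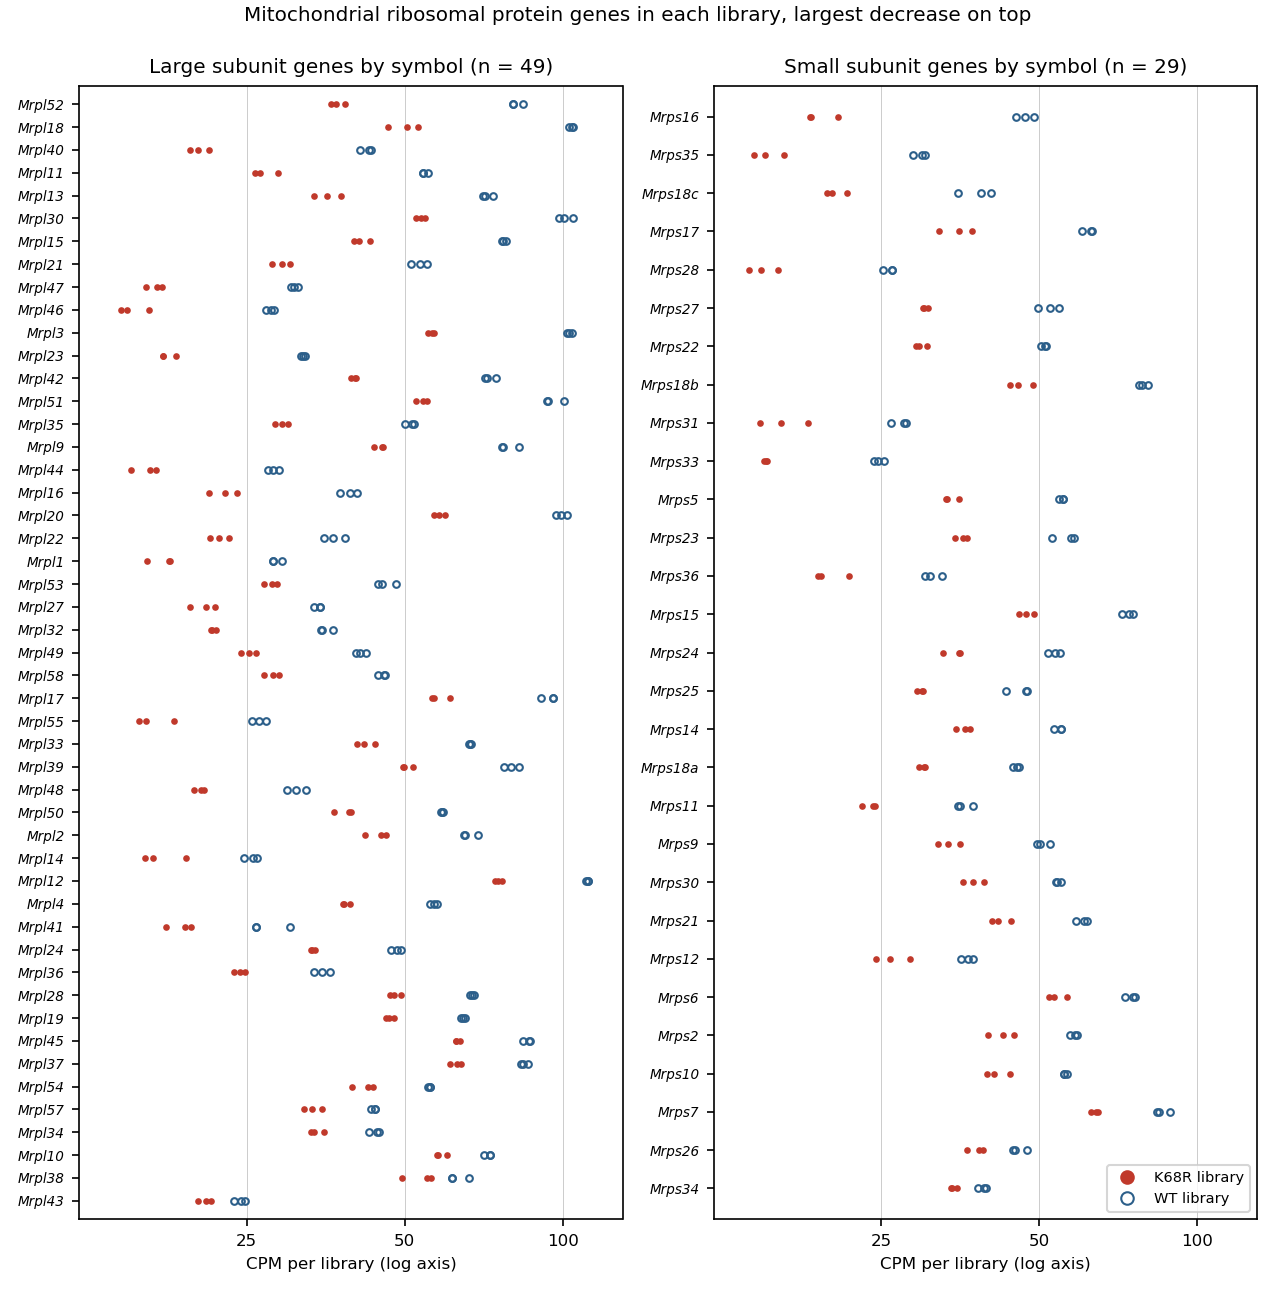
Normalized expression (CPM, log axis) of each of the 49 large subunit genes (left) and 29 small subunit genes (right) by symbol, with 1 filled point per K68R library and 1 open point per WT library, and genes ordered by fold change with the largest decrease on top. In all 78 genes the 3 filled points lie to the left of the 3 open points.

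Summed over the 78 genes, expression was 2745, 2712 and 2686 CPM in K68R and 4314, 4313 and 4252 CPM in WT. The members held 0.265% to 0.270% of all counts in K68R and 0.432% to 0.437% in WT. The K68R libraries were alike and all were below the WT libraries, a ratio of 1.58. Replicate spread was small, with a median coefficient of variation of 3.63% in K68R and 2.44% in WT and a highest value of 10.6%.

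Within the large subunit, the bacterial-type proteins form the conserved core, and 30 of 30 fell with a median log2 fold change of -0.72. Mrpl18, which sits in the central protuberance where the subunits touch, was at 53.0, 50.5 and 46.4 CPM in K68R and at 105, 103 and 104 CPM in WT (log2 -1.06 ± 0.03 SE, edgeR adjusted p = 2.12e-38). Mrpl11, a protein of the stalk that recruits translation factors, was at 28.7, 25.9 and 26.5 CPM in K68R and at 55.4, 54.2 and 54.2 CPM in WT (log2 -1.02 ± 0.04, edgeR adjusted p = 6.23e-33). Both genes were about 2-fold lower, with no overlap between the groups. The gene of Mrpl18 lies at chr17:13130232-13136674 and that of Mrpl11 at chr19:5012180-5017023 (mm39, the build of the counts). Mrpl13 was at 35.6, 37.9 and 33.5 CPM in K68R and at 71.0, 73.7 and 70.5 CPM in WT (log2 -1.01 ± 0.04, edgeR adjusted p = 8.23e-35). Mrpl30 was at 54.6, 52.6 and 53.8 CPM in K68R and at 101, 105 and 98.6 CPM in WT (log2 -0.92 ± 0.03, edgeR adjusted p = 7.10e-37). These are core proteins of the large subunit body, and their groups lay well apart. Mrpl12, the stalk protein that binds translation factors and is also known to bind mitochondrial RNA polymerase, was at 74.4, 76.7 and 75.3 CPM in K68R and at 112, 111 and 112 CPM in WT (log2 -0.56 ± 0.03, edgeR adjusted p = 1.82e-27). Its decrease without correction was smaller than the median of the large subunit, and its groups did not overlap. Corrected for exonic length and GC content (given below), Mrpl12 was at -0.09, and for transcript length and GC content at -0.66.

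Per length of the table's exons, the members with the highest mean over both groups were Mrpl52, Mrpl33, Mrps21 and Mrpl12, at 144, 117, 101 and 95.2 RPKM (CPM divided by the kilobases of annotated exon). The lowest means were those of Mrpl14 and Mrps35, at 2.84 and 4.84 RPKM, with Mrpl1 and Mrpl48 next at 4.89 and 4.94. This order depends on the length used. Per kilobase of the median GENCODE coding transcript, Mrpl20, named after values were seen, came first at 160 CPM, Mrpl52 ranked 2, Mrps21 ranked 3, Mrpl33 ranked 5 and Mrpl12 ranked 11. Mrpl14, with 7525 exonic bases in the table and 645 in the transcript, moved from rank 78 to rank 45. Mrpl33, a short core protein of the large subunit, was at 43.9, 41.8 and 40.5 CPM in K68R and at 66.9, 66.5 and 66.4 CPM in WT (log2 -0.67 ± 0.04, edgeR adjusted p = 3.99e-26). Mrpl14, to which the assembly factor MALSU1 binds, was at 19.2, 16.5 and 16.0 CPM in K68R and at 26.2, 24.8 and 25.7 CPM in WT (log2 -0.58 ± 0.06, edgeR adjusted p = 8.66e-14). Both were lower in all K68R libraries, though Mrpl14 was among the noisier genes. Across the 78 members the WT CPM and the log2 fold change had a Spearman correlation of 0.00, a description over genes that share their libraries.

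The large subunit proteins without a bacterial counterpart, 21 when Mrps30 and Mrps18a are counted there, also all fell, with a median of -0.62. Corrected for exonic length and GC content (given below), the bacterial-type genes had a median of -0.30 and these genes -0.26. With transcript length and GC content the medians were -0.54 and -0.47. Mrpl52, the shortest member with 412 exonic bases (chr14:54664366-54667207, mm39), was at 36.1, 37.1 and 38.5 CPM in K68R and at 84.1, 80.4 and 80.5 CPM in WT (log2 -1.13 ± 0.04, edgeR adjusted p = 1.94e-39). Mrpl40, of the central protuberance, was at 21.2, 19.5 and 20.2 CPM in K68R and at 41.1, 43.0 and 42.7 CPM in WT (log2 -1.06 ± 0.05, edgeR adjusted p = 7.22e-31). Both were more than 2-fold lower, and 23.9% of the exonic bases of Mrpl40 overlap those of Hira, so reads of Hira could not be told apart there. Mrpl39, whose protein lies near the exit of the polypeptide tunnel, was at 49.5, 51.8 and 49.9 CPM in K68R and at 79.9, 82.7 and 77.4 CPM in WT (log2 -0.66 ± 0.04, edgeR adjusted p = 1.83e-27). Mrpl17, a bacterial-type protein of the same region, was at 56.4, 61.0 and 57.0 CPM in K68R and at 96.0, 95.7 and 90.7 CPM in WT (log2 -0.69 ± 0.03, edgeR adjusted p = 2.27e-29). These tunnel genes stood near the median of their subunit. By region, the medians were -0.72 for 7 central protuberance genes, -0.64 for 4 stalk genes and -0.71 for 8 tunnel exit genes. All members of each were called lower, as were 40.5% of all tested genes. With exonic length and GC content the 3 medians were -0.54, -0.12 and -0.27, and 1 stalk gene was called higher. With transcript length and GC content they were -0.72, -0.54 and -0.42.

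In the small subunit, 16 of 16 bacterial-type genes fell with a median of -0.60 and 10 of 10 mitochondrion-specific genes with a median of -0.73. This difference between the classes was not seen after the corrections given below. With exonic length and GC content their medians were -0.19 and -0.19, and with transcript length and GC content -0.44 and -0.42. Mrps16, a protein of the small subunit body that is mutated in a human disorder of mitochondrial translation, had the largest decrease of all members. It was at 20.7, 18.3 and 18.4 CPM in K68R and at 47.0, 49.0 and 45.2 CPM in WT (log2 -1.30 ± 0.05, edgeR adjusted p = 1.32e-35, chr14:20441290-20443702, mm39). Each WT library was more than 2-fold above each K68R library. Mrps35, found only in mitochondrial ribosomes, was at 14.3, 16.3 and 15.0 CPM in K68R and at 29.9, 30.3 and 28.8 CPM in WT (log2 -0.96 ± 0.06, edgeR adjusted p = 1.37e-24). Mrps21 was at 40.6, 44.1 and 41.6 CPM in K68R and at 61.0, 61.7 and 58.7 CPM in WT (log2 -0.52 ± 0.04, edgeR adjusted p = 5.00e-20). Neither gene had overlapping groups, and Mrps21 fell less than the median small subunit gene.

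The mouse genome has 3 paralogs of bacterial S18, and their products do not share a place: Mrps18c takes the bacterial site, Mrps18b another site of the small subunit, and Mrps18a a site in the large subunit. Mrps18a was at 30.3, 30.1 and 29.5 CPM in K68R and at 45.4, 44.5 and 45.8 CPM in WT (log2 -0.59 ± 0.04, edgeR adjusted p = 1.53e-20). Mrps18b was at 45.6, 44.0 and 48.6 CPM in K68R and at 77.3, 80.4 and 78.4 CPM in WT (log2 -0.77 ± 0.04, edgeR adjusted p = 3.42e-30). Mrps18c was at 20.1, 21.5 and 19.7 CPM in K68R and at 38.7, 40.4 and 35.0 CPM in WT (log2 -0.90 ± 0.05, edgeR adjusted p = 1.29e-24). All paralogs fell, and the differences between their fold changes were not tested. Mrps30, whose protein belongs to the large subunit despite its symbol, was at 39.3, 37.4 and 35.8 CPM in K68R and at 53.8, 54.0 and 55.0 CPM in WT (log2 -0.54 ± 0.04, edgeR adjusted p = 7.61e-20). Mrps36, which is a part of the 2-oxoglutarate dehydrogenase complex and not of the mitochondrial ribosome, was at 21.7, 18.9 and 19.2 CPM in K68R and at 30.9, 30.3 and 32.6 CPM in WT (log2 -0.66 ± 0.05, edgeR adjusted p = 8.83e-18). Its decrease without correction was close to the median of the 78 genes.

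Of 15 members whose human genes are mutated in disorders of mitochondrial translation, 15 fell, with a median of -0.63. The median of all 78 members was -0.67, and 40.5% of all tested genes were called lower. Corrected for exonic length and GC content (given below), 14 were lower and 0 higher, with a median of -0.19. With transcript length and GC content 15 were lower, with a median of -0.56. The list includes Mrpl3, Mrpl44 and Mrps22, known from patients with hypertrophic cardiomyopathy. Mrpl3 was at 56.4, 55.4 and 56.9 CPM in K68R and at 102, 104 and 103 CPM in WT (log2 -0.87 ± 0.03, edgeR adjusted p = 1.67e-36). Mrpl44 was at 16.8, 16.4 and 15.0 CPM in K68R and at 27.5, 28.8 and 28.0 CPM in WT (log2 -0.81 ± 0.06, edgeR adjusted p = 6.98e-21). Mrps22 was at 30.6, 29.6 and 29.1 CPM in K68R and at 51.2, 51.5 and 50.4 CPM in WT (log2 -0.78 ± 0.04, edgeR adjusted p = 4.32e-27). All 3 genes were lower in every K68R library, and these are fibroblasts, with heart not analysed here.

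The smallest decreases, named after values were seen, were those of Mrps34, Mrpl43, Mrpl38 and Mrps26. Mrps34 was at 34.8, 33.9 and 34.0 CPM in K68R and at 38.2, 39.5 and 39.2 CPM in WT (log2 -0.19 ± 0.04, edgeR adjusted p = 8.56e-05). Mrpl43 was at 21.4, 20.2 and 20.9 CPM in K68R and at 23.7, 24.8 and 24.4 CPM in WT (log2 -0.22 ± 0.06, edgeR adjusted p = 0.000227), and 36.3% of its exonic bases overlap Twnk. The groups of both genes lay apart by a small step. Mrpl38 had a log2 fold change of -0.24 and Mrps26 one of -0.26. All 70 members with under 10% of their exonic bases shared with another gene were called lower, with a median of -0.70, and the 8 with 10% or more had a median of -0.50.

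The median log2 fold change was -0.71 over the 49 Mrpl genes (1.63-fold lower) and -0.64 over the 29 Mrps genes (1.56-fold lower). Counting Mrps30 and Mrps18a with the large subunit and leaving out Mrps36 gave -0.70 over 51 and -0.64 over 26 genes. Summed expression of the Mrpl genes was 1781, 1776 and 1748 CPM in K68R and 2853, 2864 and 2814 CPM in WT, a ratio of 1.61. That of the Mrps genes was 964, 936 and 938 CPM in K68R and 1461, 1449 and 1438 CPM in WT, a ratio of 1.53. The ratio of the Mrpl to the Mrps sum was 1.85, 1.90 and 1.86 in K68R and 1.95, 1.98 and 1.96 in WT. All K68R ratios were below all WT ratios, a difference of a few percent. No test was made between the subunits, since genes are not replicates. The range within each subunit, -1.13 to -0.22 and -1.30 to -0.19, was far wider than the difference between the medians.

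Mitochondrial ribosomal protein genes have short transcripts, and in these libraries fold change varied with length and GC content over all genes. The members had a median of 1506 exonic bases, against 3519 for all tested genes. Of the 4362 tested genes under 2000 exonic bases, 56.7% were called lower and 18.0% higher, with a median log2 fold change of -0.43. Between 1000 and 2000 exonic bases and from 45% to 55% GC, all 21 members were called lower with a median of -0.77, beside 921 of 1446 genes and a median of -0.46. The larger set includes the members. Among the members, length and fold change had a Spearman correlation of 0.00 and GC content and fold change one of 0.35, over 78 genes that share their libraries. The 12 members under 45% GC had a median of -0.73 and the 14 at 55% or more had one of -0.52.

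**Figure D2:**
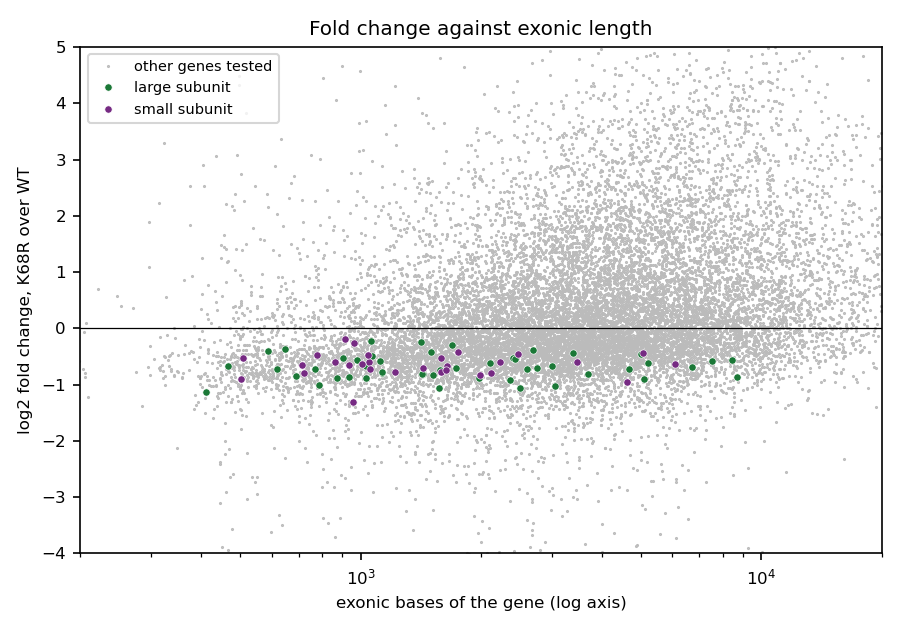
Log2 fold change (K68R over WT, y axis) against the exonic bases of a gene (log axis) for the 49 large and 29 small subunit genes and for 16000 other tested genes (grey), with 652 others outside the axes not drawn. Short genes lie mostly below 0, and all 78 members lie below 0 at every length.

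A smooth surface over exonic length and GC content, fitted to the log2 fold changes themselves, accounted for 39.1% of their variance over 15649 genes. For the correction, such a surface was fitted in each library to log2 CPM minus the gene's mean over the libraries. These surfaces were entered as offsets in the edgeR fit. With these offsets, 60 members were called lower, 7 higher and 11 were not called, and the median was -0.25, beside 37.8% of tested genes lower and 37.5% higher. The median was -0.28 for the large and -0.19 for the small subunit. The members named above that were not called with these offsets were Mrpl33 (0.05), Mrps36 (0.04), Mrps21 (0.02), Mrps30 (-0.0040), Mrps18a (-0.04) and Mrps34 (-0.07). The 7 called higher were Mrps26, Mrpl43, Mrpl34, Mrpl10, Mrpl37, Mrps6 and Mrpl57, with log2 fold changes of 0.09 to 0.32. The table's exonic length counts the exons of all annotated transcripts, which for Mrpl4 gives 8452 bases against 815 in the median GENCODE coding transcript. The offset fit put Mrpl4 at -3.42 and Mrpl14 at -3.30, far from -0.56 and -0.58 without offsets. With the GENCODE transcript length in its place, an alternative added after the data were seen, Mrpl4 and Mrpl14 were both at -0.85. For some members that length exceeded all of the table's exons, as for Mrps26 (4278 against 962 bases), Mrpl47 (3364 against 872) and Mrps16 (2572 against 957). Mrpl47 was at -0.26 with the first offsets and at -0.96 with the second. Neither length was therefore sound for every member. On that scale 76 members were called lower, 0 higher and 2 (Mrpl10 and Mrps10) not, beside 38.5% of tested genes lower and 38.3% higher. The members' median was then -0.47, with -0.54 for the large and -0.42 for the small subunit. Short genes as a whole still leaned lower on that scale. Of the 3963 genes under 2000 exonic bases with offsets, 1946 were called lower and 811 higher, with a median of -0.23. With exonic length offsets the same genes had 1266 lower and 1276 higher, with a median of 0.0085. Mrps16 was at -0.71 with the first offsets and at -1.20 with the second, and Mrpl52 at -0.56 and -1.13. Mrps26 was at 0.32 with the first offsets and at -0.98 with the second, so its direction rested on the length used. Mrpl18, Mrpl11, Mrpl40 and Mrps35 stayed at -0.58 or below under both. The part of length and GC content in the members' decrease was not tested beyond these fits.

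**Figure D3:**
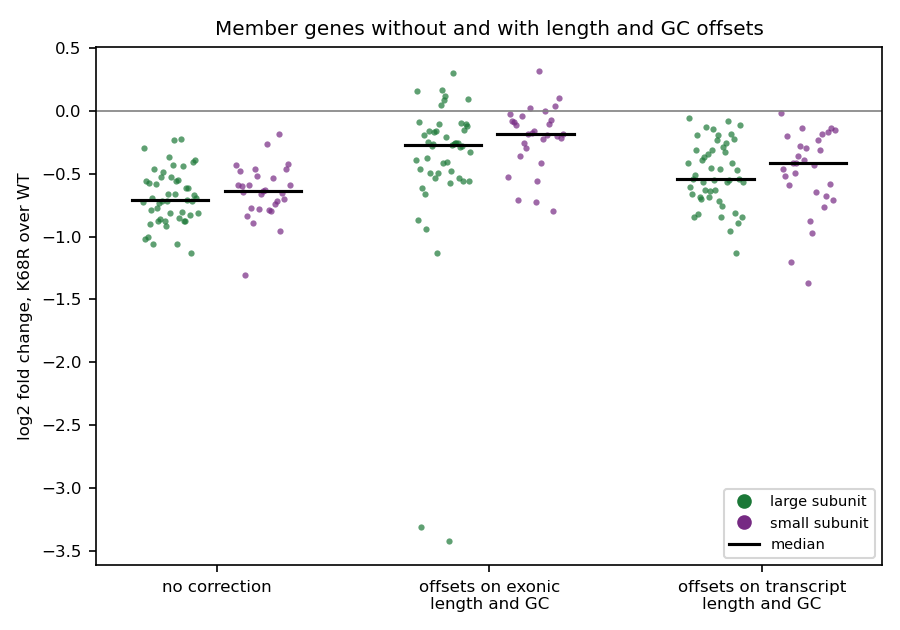
Log2 fold change (K68R over WT) of each large subunit gene (left of each pair) and small subunit gene (right) without correction and with offsets on exonic or on transcript length together with GC content, 1 point per gene and a bar at the median. Medians move from -0.71 and -0.64 to -0.28 and -0.19 with exonic length, and to -0.54 and -0.42 with transcript length, and the 2 points below -3 are Mrpl4 and Mrpl14.

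The other subunits of the mitochondrial ribosome, which have other symbols, were lower too. All 5 listed genes were called lower, with a median of -0.53, where 40.5% of all tested genes were called lower and 40.8% higher. With exonic length offsets 4 were lower and 0 higher (median -0.19), and with transcript length offsets 5 were lower (median -0.34). Chchd1, a small subunit protein, was at 33.2, 31.4 and 30.8 CPM in K68R and at 57.6, 55.8 and 53.1 CPM in WT (log2 -0.81 ± 0.04, edgeR adjusted p = 6.00e-28). Ptcd3, Dap3 and Aurkaip1, all of the small subunit, had log2 fold changes of -0.55, -0.53 and -0.53. Of 24 factors that assemble the ribosome or modify its RNA, 20 were called lower, 2 higher and 2 (Ddx28 and Noa1) not, with a median of -0.51. With exonic length offsets 17 were lower and 1 higher (median -0.27), and with transcript length offsets 18 were lower and 1 higher (median -0.40). Fastkd2, an RNA-binding protein of mitochondrial RNA granules, had a log2 fold change of -0.75. Gtpbp10, a GTPase of large subunit assembly, was at -0.71, and Mterf3, a regulator of mitochondrial transcription and ribosome assembly, at -0.62, all called lower. Dhx30, an RNA helicase of the same granules, was at 83.4, 85.9 and 85.7 CPM in K68R and at 56.8, 60.5 and 58.8 CPM in WT. It rose without correction (log2 0.54 ± 0.03, edgeR adjusted p = 8.27e-24), but was at -0.24 with exonic length offsets and 0.36 with transcript length offsets. Mpv17l2, an inner membrane protein needed for ribosome assembly, was at 0.34 without correction and at -0.15 and -0.56 with the offsets, so neither of these genes had a direction that held. Of 16 genes for translation factors and for handling of mitochondrial messages, 15 were called lower, 0 higher and 1 (Mtrf1l) not, with a median of -0.40. This did not hold for all of them after correction. Of the 15 with offsets, 8 were lower and 3 higher on exonic length (median -0.20). On transcript length 11 were lower and 2 higher (median -0.25). Slirp, which binds mitochondrial messages, fell most of the named ones, at -0.93. Guf1 and Gfm1, GTPases of mitochondrial translation, were at -0.67 each, and Oxa1l, which inserts the new proteins into the inner membrane, was at -0.66, all called lower.

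**Figure D4:**
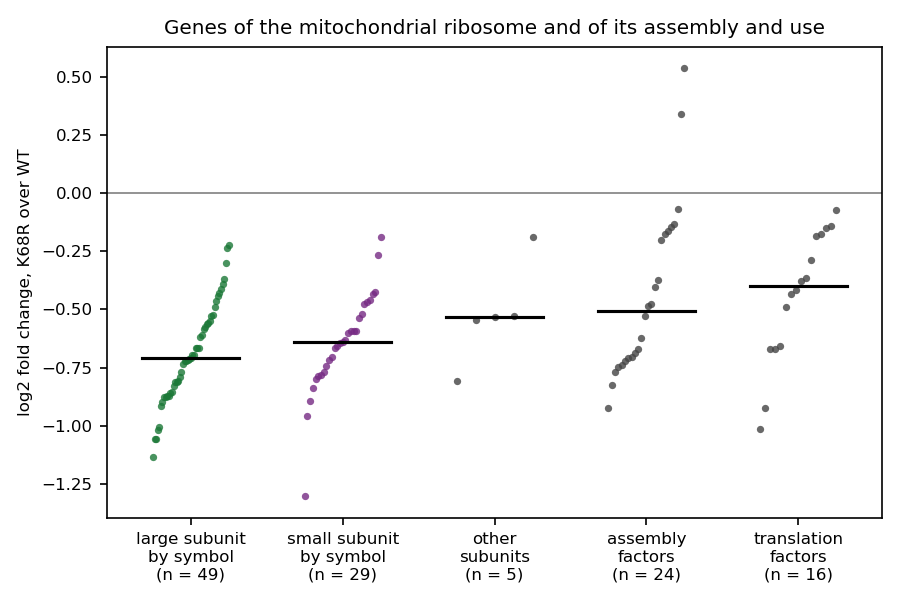
Log2 fold change (K68R over WT) of the members by subunit, of 5 other subunits, of 24 assembly factors and of 16 translation factors, 1 point per gene with bars at the medians (-0.71, -0.64, -0.53, -0.51 and -0.40). The 2 points above 0 are Dhx30 and Mpv17l2, which fall below 0 with exonic length offsets.

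The ribosomal RNAs that these proteins bind, named after values were seen, differed from each other. The small subunit RNA mt-Rnr1 was at 343, 337 and 362 CPM in K68R and at 295, 250 and 232 CPM in WT (log2 0.42 ± 0.10, edgeR adjusted p = 0.0182). The large subunit RNA mt-Rnr2 was at 2113, 2152 and 2326 CPM in K68R and at 2688, 2683 and 2245 CPM in WT (log2 -0.21 ± 0.09, edgeR adjusted p = 0.10). The groups of mt-Rnr1 lay apart, and those of mt-Rnr2 overlapped. With offsets on exonic and on transcript length, mt-Rnr1 was at 0.96 and 0.89 and mt-Rnr2 at 0.31 and 0.25. The direction of mt-Rnr2 thus rested on the scale. Counts of mt-Rnr2 were 6.16 to 6.43 times those of mt-Rnr1 in K68R and 9.11 to 10.7 times in WT. Libraries made from poly(A) RNA recover these RNAs only in part, so the values are not their amounts in the cell. Among the pseudogene rows left out by the rule, Mrpl48-ps had 34, 34 and 46 counts in K68R and 341, 259 and 245 counts in WT (log2 -2.61, edgeR adjusted p = 5.09e-27), while Mrpl48 itself was at -0.62. Near-identical copies can exchange or lose reads, so the value of Mrpl48-ps is uncertain.

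Many member genes start next to a gene on the other strand, an arrangement in which a short stretch of DNA serves both. In the mm39 coordinates of the count table, 31 of the 78 members had such a gene with its start within 500 bases. Mrps11 (chr7:78432879-78442736) and Mrpl46 (chr7:78425089-78432837) are each other's neighbour, with starts 42 bases apart. Mrps11 was at 23.0, 24.1 and 24.4 CPM in K68R and at 37.4, 35.1 and 35.4 CPM in WT (log2 -0.59 ± 0.05, edgeR adjusted p = 5.27e-18). Mrpl46 was at 16.3, 14.8 and 14.4 CPM in K68R and at 27.3, 27.8 and 28.2 CPM in WT (log2 -0.87 ± 0.06, edgeR adjusted p = 3.21e-22). Both genes of the pair were lower in all K68R libraries, although Mrps11 was not called with exonic length offsets (-0.03). The other 29 neighbours were not members, and 27 of them were tested. Of these 27, 13 were called lower, 10 higher and 4 not called, with a median of -0.19. Over all tested genes 40.5% were called lower and 40.8% higher. Of the 25 neighbours with offsets, 13 were lower and 7 higher on exonic length (median -0.24). On transcript length 12 were lower and 9 higher (median -0.10). Ighmbp2, a helicase gene whose start lies 14 bases from that of Mrpl21, was at 13.4, 13.1 and 14.2 CPM in K68R and at 3.37, 3.65 and 3.55 CPM in WT (log2 1.95 ± 0.10, edgeR adjusted p = 2.17e-29), beside -0.88 for Mrpl21. With offsets Ighmbp2 was at 0.04, so that its rise rested on the scale. Ppp1r10, a phosphatase subunit beside Mrps18b, was at 107, 105 and 108 CPM in K68R and at 29.2, 28.4 and 27.6 CPM in WT (log2 1.91 ± 0.04, edgeR adjusted p = 1.04e-53), with 0.88 and 0.84 under the offsets. Mtbp, beside Mrpl13, went down with its neighbour, at 12.9, 13.6 and 16.4 CPM in K68R and at 36.1, 36.7 and 35.1 CPM in WT (log2 -1.32 ± 0.06, edgeR adjusted p = 5.07e-30). Ska3, a protein of the mitotic spindle beside Mrpl57, was at -1.31, and Fau, which encodes a cytosolic ribosomal protein and lies beside Mrpl49, at -0.79. This pair and the neighbours were named after values were seen. Counting ignored strand, so reads of exons that neighbours share cannot be told apart.

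**Figure D5:**
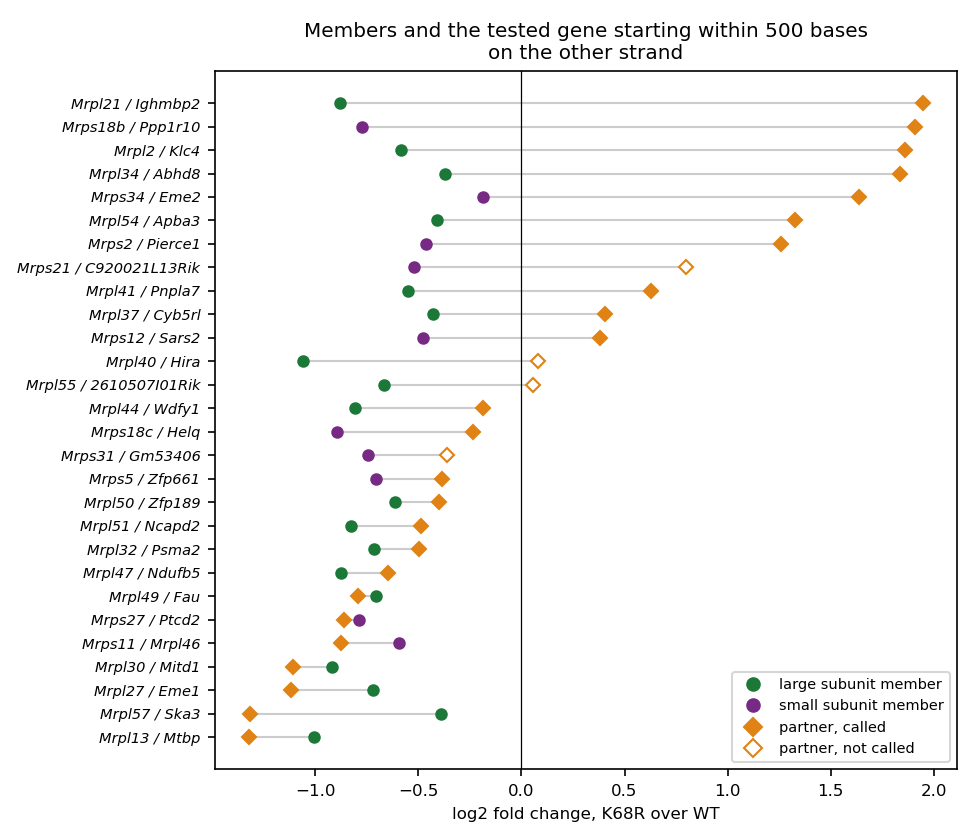
Log2 fold change (K68R over WT) of members (circles) and of the tested gene that starts within 500 bases on the other strand (diamonds, filled where called), 1 line per pair, with the pair of Mrps11 and Mrpl46 drawn once. The circles all lie below 0 while the diamonds range from -1.32 to 1.95.

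The groups also differed in markers of cell type and of growth. The summed level of 12 fibroblast markers was 18266 to 18320 CPM in K68R and 8524 to 8686 CPM in WT. Of the 12 single genes, 5 were called higher, 6 lower and 1 not. The rise of the sum came mostly from Fn1 and the collagens Col1a1 and Col1a2. Vim, the largest part of the WT sum, hardly differed between the groups (log2 0.02, not called). Pdgfra, Thy1 and Dcn were called lower, with log2 fold changes of -2.48, -1.62 and -2.12. Summed skeletal muscle markers (10 genes) were at 259.8 to 260.3 CPM in K68R and 84.5 to 86.3 CPM in WT. Adipocyte markers (6 genes) were at 3.76 to 4.89 CPM in K68R and 75.7 to 83.5 CPM in WT, and epithelial markers (5 genes) at 18.4 to 20.4 and 42.3 to 43.5 CPM. All 9 tested muscle markers were called higher, and all 5 tested adipocyte and all 5 epithelial markers lower. Plin1 and Retn, of the adipocyte list, had 0 counts in every K68R library. The endothelial sum (5 genes) was 96.1 to 97.9 CPM in K68R and 24.7 to 27.2 CPM in WT, most of it from Kdr (90.7 against 20.4 CPM on average). Of those 5 genes, 2 were called higher and 3 were not called, with a median log2 fold change of 0.01, and the defining markers Pecam1 and Cdh5 were near or under 1 CPM in both groups. The macrophage sum (7 genes) was 129 to 136 CPM in K68R and 147 to 150 CPM in WT, most of it from Lyz2 (82.7 against 100.4 CPM on average). Of those 7 genes, 2 were called higher, 2 lower and 3 not, with a median of 0.04. Summed proliferation genes (12 genes) were at 1188 to 1206 CPM in K68R and 2638 to 2652 CPM in WT, with 11 of the 12 called lower. The exception was Mki67, which encodes the widely used proliferation marker Ki-67. It was at 145, 147 and 151 CPM in K68R and at 32.9, 35.4 and 32.6 CPM in WT (log2 2.14 ± 0.03, edgeR adjusted p = 8.95e-59), and at 1.85 and 1.92 with the offsets. The 12 proliferation genes had a median log2 fold change of -1.34, and of -1.23 and -1.17 with the offsets. On each scale 11 were called lower and 1 higher. Single marker genes were named after values were seen. The part of these differences in the members' decrease was not tested.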

How the data were processed

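The deposited file holds whole-number counts of read pairs for each gene in 6 poly(A) libraries, which the authors did not normalize. The tools were HISAT2 2.2.1 and featureCounts 2.0.6 with bcl2fastq and SAMtools, on mm39, per the submitters' processing notes. Per the file headers, exons of the NCBI RefSeq annotation were counted without a strand option, while the labels' protocols name a stranded kit. How reads were trimmed is unknown here. Groups came from the sample titles. Totals per library lay between 26200088 and 40691447 counts, where 3 counts make 0.0728 to 0.116 CPM.

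The test was that of edgeR 4.0.16 under R 4.3.3 (filterByExpr, TMM, robust quasi-likelihood F test, Benjamini-Hochberg over 16730 genes, threshold 0.05). CPM and RPKM use TMM-normalized library sizes. Replicate pairs differed by more than sampling noise (chi-square per gene 1.88 to 2.32). Alternatives were other normalizations and filters, DESeq2 1.42.0, a replicate block, leaving out each library, a bound of 1.2-fold, genes under 2000 exonic bases, and offsets from a surface over log2 length and GC content (mgcv 1.9.3). The offsets on transcript length were added after the data were seen. GC content and transcript length came from GENCODE transcripts of GRCm38, joined by symbol for 93.5% of tested genes and all 78 members. Tested on simulated counts for the comparison of K68R with WT (16730 genes), the fit recovered 28 of 50 genes changed 1.2-fold, 33 of 50 changed 1.5-fold, 42 of 50 changed 2-fold and 49 of 50 changed 4-fold.

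The members, gene lists and tests were chosen with earlier results of these data known. Values per library are given for the 8 members with the largest decrease, the 4 highest and 2 lowest by RPKM, the Mrps18 paralogs, Mrps30, Mrps36, 3 cardiomyopathy genes and up to 2 genes per structural region with the smallest p. From the lists of other subunits, assembly factors and translation factors, up to 4 called genes with the smallest p and any that go against the list are named. Other genes, markers included, were named after values were seen.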

Additional observations from a re-analysis of the deposited data

How the results depend on the processing

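All 78 members were called lower, and 0 higher, with DESeq2, its size factors in edgeR, upper quartile normalization, a 1 CPM filter, no filter, a replicate block and without any 1 library. Same-numbered libraries had correlations of -0.01 to 0.01 between their deviations, so the numbers did not pair the samples, and the replicate block called 6763 of all genes lower and 6804 higher, with 78 members lower. Results moved with length and GC content, and the cause was not tested. With offsets on exonic length, 7 members were called higher (7 with the replicate block added), 19 small subunit genes lower (19 with the block), and the medians were -0.28 (large) and -0.19 (small), or -0.28 and -0.18 with the block. With offsets on transcript length the medians were -0.54 and -0.42, beside -0.23 for all tested genes under 2000 exonic bases. Among genes under 2000 exonic bases, normalized among themselves, 51 members were tested: 38 were called lower (21 large, 17 small) and 5 higher, with medians of -0.30 and -0.22, beside 31.4% of the 4376 genes in that fit lower and 33.8% higher. The large and small medians were -0.82 and -0.75 with upper quartile normalization, -0.75 and -0.68 with no filter, -0.68 and -0.61 with the 1 CPM filter, and the large median was -0.73 with DESeq2. Leaving out 1 library, the large median ran from -0.74 to -0.70 and the small one from -0.66 to -0.62.

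With exonic length offsets, and again with the replicate block added, Mrps21 was at 0.0186 and 0.0150, Mrpl33 at 0.0473 and 0.0475, Mrps36 at 0.0399 and 0.0418, Mrps26 at 0.32 and 0.32, Mrpl43 at 0.30 and 0.30, Dhx30 at -0.24 and -0.24, and Mpv17l2 at -0.15 and -0.15. Mpv17l2 was at -0.56 with transcript length. Among genes under 2000 exonic bases, Mrps26 was at 0.16, Mrpl38 at 0.19, Mrpl43 at 0.20 and Mrps34 at 0.24. Depth did not limit the members, whose lowest count was 370.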
